A study of Homo sapiens with 9 samples.

Results

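The genes described here encode the E2F transcription factors, cyclin E and the proteins that license and copy DNA. They also encode the enzymes that supply nucleotides and factors of the replication fork, chromatin and histone mRNA. They are 43 genes named by a fixed list, of 18132 genes measured on 9 Affymetrix PrimeView arrays, and each gene is read from the probe set that was brightest on average. RNA came from MDA-MB231 cultures. MDA-MB231 is an established line of human breast cancer cells. The cells were plated at 70% confluency and treated the next day in fresh medium with serum. Lysis followed 24 h later, and the labels put confluency at 90% then. Of the 9 cultures, 3 received PD325901 at 3 µM, 2 received BB94 at 10 µM and 4 control cultures received 0.1% DMSO. Both inhibitors came from 10 mM stocks, and no DMSO percentage is given for the treated cultures. PD325901 inhibits MEK, the kinase that activates ERK. BB94 is batimastat, an inhibitor of metalloproteinases. Per the labels the replicates are biological, and every culture is of the same line, so the spread is that between cultures of 1 line.

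E2F proteins switch on transcription at the border of G1 and S phase once the retinoblastoma protein is phosphorylated and lets them go. ERK signalling feeds this step through cyclin D and its kinases. The genes that E2F activates load the MCM helicase onto origins, start it, and provide the polymerases, clamps and nucleotides for DNA synthesis, and E2F genes themselves are among the targets.

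On these arrays 42 of the 43 genes fell under PD325901. Under BB94 none was called, which is near the low share called over all genes. Calls are those with an adjusted p under 0.05 in limma, with Benjamini-Hochberg adjustment over all 18132 genes. Across all genes 12.3% were called lower and 22.8% higher in PD325901 against control, and 1.58% were called in BB94 against control, 1.09% lower and 0.491% higher. The median log2 change of the 43 genes under PD325901 was -1.27, against 0.08 over all genes. At least 2-fold falls were called in 32 of the 43, beside 2.64% of all genes. E2F8 and ORC1 were below background on all PD325901 arrays and have only a bound, and MCM5 was below it on all 9 arrays. With those bounds in place and MCM5 left out the median was -1.25, and 30 of the 40 genes measured in both groups fell at least 2-fold. In the same 42 genes all 3 PD325901 arrays lay below all 4 control arrays, which held for 14.8% of all genes. With each array centred on its median over genes, the median of all genes moved to -0.17, 5076 genes were called lower and 2353 higher, and the median of the 43 genes was -1.52. Without centring the calls over all genes were 2223 lower and 4142 higher. RNA from whole cultures cannot tell fewer cells in S phase from less of these transcripts per cell.

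**Figure D1:**
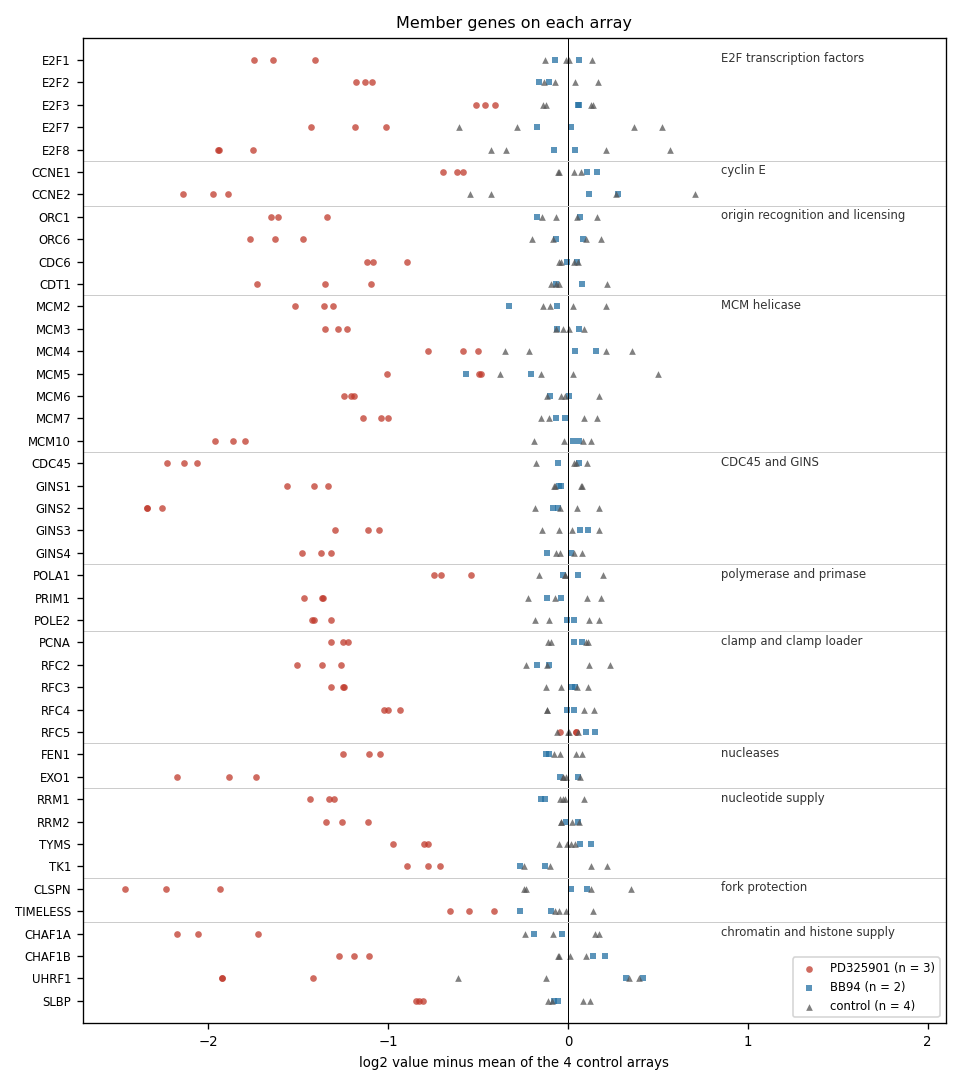
Log2 value of each of the 43 genes on each array, minus the mean of the 4 control arrays, with genes down the page by role. Circles are PD325901 arrays (n = 3), squares BB94 arrays (n = 2) and triangles control arrays (n = 4). The PD325901 circles lie among the control arrays for RFC5, and for MCM5 they overlap a BB94 array.

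Of the promoter windows, 4 are shown. GINS2 and CLSPN fell most among genes whose promoter window held an E2F motif, and the MCM6 window held the most matches. RFC5 is shown because the brightest of its 4 probe sets, the one used, was not called. Its other probe sets fell, as described further on. MCM6 was added after its matches were seen. The windows are from RefSeq on GRCh38.p14 and run from 250 bases before to 50 after the start of the gene. They lie at chr16:85688905-85689204 (GINS2, minus strand), chr1:35769929-35770228 (CLSPN, minus), chr2:135876394-135876693 (MCM6, minus) and chr12:118016453-118016752 (RFC5, plus). Each reads 5′ to 3′ along the gene, and capitals mark the 8-base motifs TTTGGCGC, TTTCCCGC, TTTGCCGC and TTTCGCGC on either strand.
GINS2: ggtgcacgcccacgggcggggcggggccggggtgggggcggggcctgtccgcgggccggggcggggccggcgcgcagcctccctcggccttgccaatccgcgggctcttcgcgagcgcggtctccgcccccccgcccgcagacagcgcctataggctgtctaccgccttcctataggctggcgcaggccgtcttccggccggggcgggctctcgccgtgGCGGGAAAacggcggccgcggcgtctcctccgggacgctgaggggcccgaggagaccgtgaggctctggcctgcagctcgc
CLSPN: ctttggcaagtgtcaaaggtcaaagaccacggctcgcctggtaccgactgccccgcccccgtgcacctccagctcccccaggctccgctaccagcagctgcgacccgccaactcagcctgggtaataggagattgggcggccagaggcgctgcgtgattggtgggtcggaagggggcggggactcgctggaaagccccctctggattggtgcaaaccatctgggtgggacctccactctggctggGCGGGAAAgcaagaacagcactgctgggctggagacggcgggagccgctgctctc
MCM6: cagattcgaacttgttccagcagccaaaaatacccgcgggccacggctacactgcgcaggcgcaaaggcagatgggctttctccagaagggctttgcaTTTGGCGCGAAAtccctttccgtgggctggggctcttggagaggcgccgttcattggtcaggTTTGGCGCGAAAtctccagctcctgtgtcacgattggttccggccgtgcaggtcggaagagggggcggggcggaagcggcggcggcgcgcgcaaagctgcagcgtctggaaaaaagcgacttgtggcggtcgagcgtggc
RFC5: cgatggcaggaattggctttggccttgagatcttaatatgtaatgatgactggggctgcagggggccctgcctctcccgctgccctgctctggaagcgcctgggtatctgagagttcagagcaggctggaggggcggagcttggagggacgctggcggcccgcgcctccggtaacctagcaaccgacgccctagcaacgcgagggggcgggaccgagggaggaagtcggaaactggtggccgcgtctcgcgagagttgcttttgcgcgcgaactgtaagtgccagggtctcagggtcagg
In GINS2 the match GCGGGAAA begins 31 bases before the start, and in CLSPN the same letters begin 5 bases before it. MCM6 has 4 matches in 2 stretches of 12 bases, because TTTGGCGC and GCGCGAAA overlap in each, and the stretches begin 152 and 90 bases before the start. The RFC5 window holds no match. Of the 43 genes, 38 matched the table (not E2F8, CCNE2, MCM4, MCM5 and GINS4), and 20 of these 38 (52.6%) hold at least 1 match, compared with 5.53% of the 14425 measured genes that have a window. The median log2 change in PD325901 against control was -1.28 in the 20 genes with a match (range -2.31 to -0.46). In the 18 without a match it was -1.22, with a range from -2.14 (CDC45) to 0.01 (the RFC5 probe set used). In the other list of replication and E2F genes described further on, 19 of 46 genes with a window (41.3%) hold a match. Both lists were drawn up as E2F and replication genes, so their higher shares are no result of these arrays. A match is a description of letters, and its absence says only that they are not in this window.

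All 5 E2F genes on the fixed list fell, the activators E2F1, E2F2 and E2F3 as well as the repressors E2F7 and E2F8. E2F4 and E2F5 belong to the other list described further on and were not called in PD325901 against control. E2F1, the best known activator, had log2 values of 8.67, 8.44 and 8.33 under PD325901, 10.14 and 10.01 under BB94 and 10.07, 10.09, 10.21 and 9.95 in control, each list in replicate order. The PD325901 arrays lay apart below the others, and BB94 and control overlapped (log2 change -1.60, SE 0.10, 3.03-fold, adjusted p = 9.3e-07 in PD325901 against control). E2F2, also an activator, had a log2 change of -1.13 (SE 0.09). E2F3, another activator, had the smallest change of the 5 in the probe sets used, but its other probe sets fell further (log2 changes -0.82 and -1.56). The E2F3 probe set used had 12.81, 12.75 and 12.70 under PD325901, 13.27 and 13.28 under BB94 and 13.35, 13.34, 13.09 and 13.08 in control. Its PD325901 arrays were still the lowest (log2 change -0.46, SE 0.09, 1.38-fold, adjusted p = 0.00271), and the BB94 arrays lay between the higher and lower control pairs. E2F8, an atypical E2F that represses E2F targets, stood at 4.65, 4.64 and 4.84 under PD325901, 6.51 and 6.63 under BB94 and 7.16, 6.80, 6.25 and 6.17 in control. It was above background in 0 of 3 PD325901 arrays, in both BB94 arrays and in 2 of 4 control arrays, so only a bound can be given. Background here is the highest of 23 background probe sets on the array, 6.02 to 6.50. E2F8 fell at least 1.13-fold under PD325901 (adjusted p = 4.7e-05). The control mean in that bound includes replicates 3 and 4, which were not above background. E2F7, the other atypical member, had a log2 change of -1.21 with a wide error (SE 0.24). Its control replicates 1 and 2, at 12.38 and 12.22, lay above replicates 3 and 4, at 11.57 and 11.25.

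The cyclin E genes encode the partners of CDK2 that drive entry into S phase. CCNE2 had 8.26, 8.02 and 8.18 under PD325901, 10.43 and 10.27 under BB94 and 10.86, 10.43, 9.72 and 9.61 in control. Its highest PD325901 array lay 1.35 units below the lowest other array (log2 change -2.00, SE 0.26, 4.01-fold, adjusted p = 1.3e-04), although the control arrays themselves spread over 1.25 units. CCNE1 had 10.93, 10.90 and 10.82 under PD325901, 11.68 and 11.62 under BB94 and 11.46, 11.55, 11.59 and 11.47 in control, with the PD325901 arrays lowest (log2 change -0.63, SE 0.07, 1.55-fold, adjusted p = 7.2e-05). Both BB94 arrays of CCNE1 lay above all 4 control arrays, without a call (log2 change 0.13, 95% interval -0.06 to 0.32).

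All 4 licensing genes fell, by 2.04- to 3.09-fold where a fold can be given. ORC1 and ORC6 belong to the origin recognition complex, and CDC6 and CDT1 bring the MCM helicase to it. ORC6 read 10.16, 10.00 and 9.86 under PD325901, 11.72 and 11.56 under BB94 and 11.81, 11.73, 11.55 and 11.43 in control. The PD325901 group stood clear of both others (log2 change -1.63, SE 0.11, 3.09-fold, adjusted p = 1.6e-06). For CDC6 the values were 12.82, 12.63 and 12.60 under PD325901, 13.71 and 13.76 under BB94 and 13.77, 13.75, 13.66 and 13.67 in control, again with PD325901 lowest (log2 change -1.03, SE 0.08, 2.04-fold, adjusted p = 4.2e-06). CDT1 had a log2 change of -1.39 (SE 0.14). ORC1 was below background in all 3 PD325901 arrays and above it in the other 6, so it fell by 1.58-fold or more (adjusted p = 2.3e-06).

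The MCM genes encode the 6 subunits of the replicative helicase, MCM2 to MCM7, and MCM10, which binds the activated helicase. MCM10 changed most, with 10.38, 10.31 and 10.21 under PD325901, 12.24 and 12.20 under BB94 and 12.30, 12.26, 12.15 and 11.98 in control. The PD325901 arrays lay at least 1.60 units below every other array (log2 change -1.87, SE 0.09, 3.66-fold, adjusted p = 1.7e-07). MCM2, MCM3, MCM6 and MCM7 had log2 changes of -1.39, -1.29, -1.21 and -1.06, with SEs of 0.08 to 0.11. MCM4 gave 12.38, 12.11 and 12.30 under PD325901, 13.04 and 12.92 under BB94 and 13.24, 13.10, 12.67 and 12.54 in control, and its highest PD325901 array lay 0.15 units below the lowest control array (log2 change -0.62, SE 0.16, 1.54-fold, adjusted p = 0.0118). Without PD325901 replicate 2 the MCM4 call was lost (adjusted p = 0.0565, range over 20 alternatives 7.0e-07 to 0.0565). All 5 MCM4 probe sets were called lower in the fit over all probe sets, and the one used changed least. MCM5 rests on 1 probe set that lay below background on all 9 arrays, so no fold is given. Its values were 4.94, 4.95 and 4.43 under PD325901, 5.23 and 4.87 under BB94 and 5.06, 5.29, 5.94 and 5.46 in control, and its call (adjusted p = 0.0275) was lost without control replicate 4 (adjusted p = 0.0571), without PD325901 replicate 3 (0.126), without control replicates 3 and 4 (0.135) and with the replicate number as a block (0.0926).

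CDC45 and the GINS complex join MCM2 to MCM7 to form the active helicase, and all 5 genes fell at least 2-fold. GINS2 had the lowest log2 change of the 43 genes and ranked 46 from the lowest among all 18132. Its values were 8.40, 8.32 and 8.32 under PD325901, 10.61 and 10.58 under BB94 and 10.48, 10.62, 10.71 and 10.84 in control. The 3 PD325901 arrays lay within 0.08 units, and the nearest of the other arrays was 2.08 units above them (log2 change -2.31, SE 0.09, 4.97-fold, adjusted p = 4.5e-08). CDC45 followed with a log2 change of -2.14 (SE 0.09, 4.42-fold). GINS1 and GINS4 had -1.44 and -1.39. GINS3 changed least in this complex, with 10.98, 10.92 and 10.73 under PD325901, 12.09 and 12.14 under BB94 and 12.20, 12.05, 11.98 and 11.88 in control, and PD325901 again lay apart below the rest (log2 change -1.15, SE 0.10, 2.22-fold, adjusted p = 6.3e-06).

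Genes of the polymerases and of primase fell as well. PRIM1, the catalytic subunit of primase, had 9.60, 9.60 and 9.50 under PD325901, 10.93 and 10.85 under BB94 and 10.74, 10.90, 11.07 and 11.15 in control (log2 change -1.40, SE 0.10, 2.64-fold, adjusted p = 2.6e-06). No PD325901 array reached the lowest of the others. POLE2, a subunit of polymerase epsilon, had a log2 change of -1.38 (SE 0.10). POLA1, the catalytic subunit of polymerase alpha, had 10.70, 10.53 and 10.49 under PD325901, 11.29 and 11.21 under BB94 and 11.43, 11.22, 11.22 and 11.08 in control (log2 change -0.66, SE 0.10, 1.58-fold, adjusted p = 3.6e-04), its PD325901 arrays lowest.

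The sliding clamp PCNA is placed on DNA by the RFC loader. PCNA had a log2 change of -1.26 (SE 0.09). RFC2 read 9.13, 9.02 and 8.88 under PD325901, 10.28 and 10.22 under BB94 and 10.15, 10.27, 10.51 and 10.62 in control, with the PD325901 arrays apart from the rest (log2 change -1.38, SE 0.12, 2.60-fold, adjusted p = 7.2e-06). RFC3 and RFC4 had -1.27 and -0.99. RFC5 alone was not called, at 12.95, 12.86 and 12.95 under PD325901, 13.00 and 13.05 under BB94 and 12.96, 12.90, 12.91 and 12.84 in control. All 9 arrays lay within 0.21 units and the PD325901 and control arrays overlapped (log2 change 0.01, 95% interval -0.15 to 0.18, adjusted p = 0.908).

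The RFC5 value depends on which of its 4 probe sets is read. The brightest probe set, the one used, averaged 12.92 ± 0.05 under PD325901 (SD, n = 3) and 12.90 ± 0.05 in control (SD, n = 4). The other 3 were above background on all 9 arrays, and all of them fell. The next brightest averaged 9.75 ± 0.12 under PD325901 (SD, n = 3) and 11.21 ± 0.04 in control (SD, n = 4). The log2 changes of these 3 were -1.46, -1.44 and -1.60, or 2.75-, 2.72- and 3.03-fold, in a limma fit over all probe sets. The mean over the 4 probe sets fell by 1.12 (adjusted p = 1.9e-07). The probe sets of RFC5 disagree, and the gene is uncalled only where its brightest probe set stands for it. Whether that brightest probe set also reads another transcript was not checked, so its 0.01 may not be the level change of RFC5 mRNA.

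The 43 genes had 103 probe sets in all, and 32 genes had more than 1. Of the 60 not used, 52 were called lower, 7 were not called and 1 was called higher. Over all 49293 probe sets in that fit 12.1% were called lower and 17.2% higher. The one called higher belongs to UHRF1 and lay below background on all 9 arrays. Among the 30 of the 60 that were above background on all 9 arrays, 30 were called lower, and 25 of them had a change further below 0 than the probe set used for the same gene. The median difference was -0.19 and 10 of the 30 lay more than 0.5 units further down. CDC6 had a log2 change of -2.46 (5.52-fold) in its other probe set, against -1.03 in the one used. MCM10 reached -2.72 (6.59-fold), and MCM4 -1.66 and -1.92 in 2 probe sets above background, against -0.62 in the one used. In E2F3 the other probe sets gave -0.82 and -1.56. CDT1 ran the other way, with -0.68 in its other probe set above background, against -1.39.

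**Figure D2:**
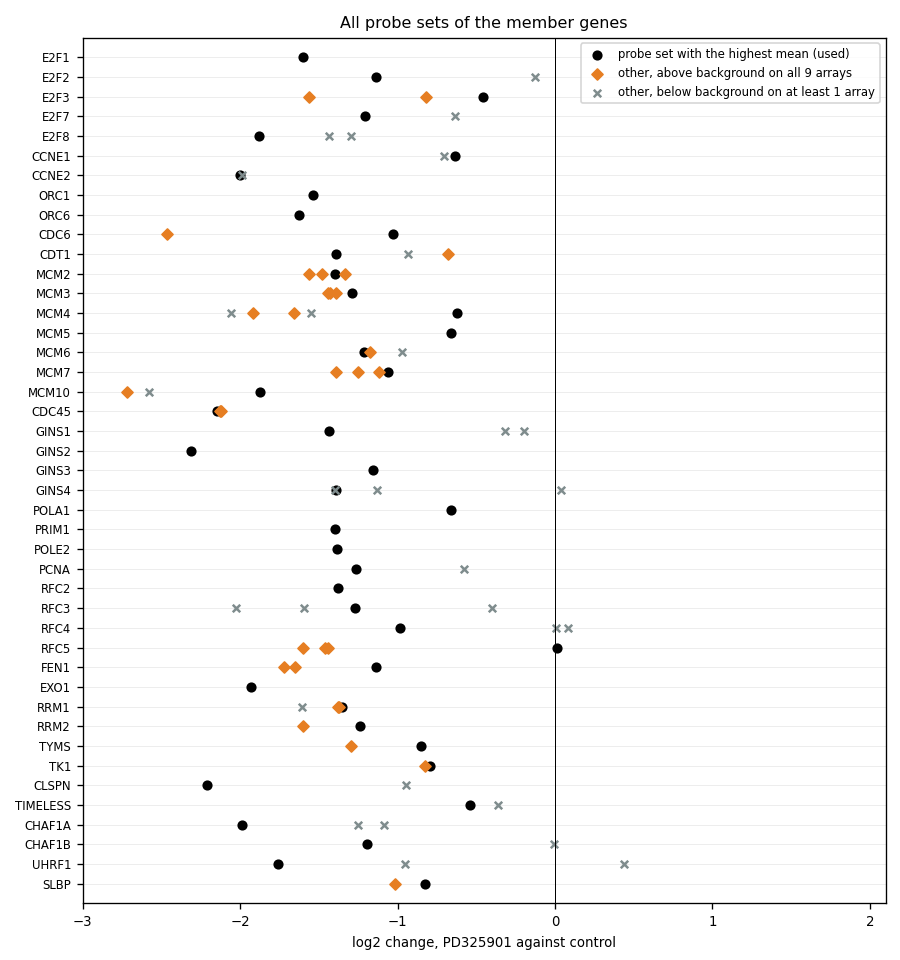
Log2 change in PD325901 against control for all 103 probe sets of the 43 genes, from a limma fit over all probe sets. Black circles are the probe sets used (highest mean), orange diamonds other probe sets above background on all 9 arrays, and grey crosses those below it on at least 1 array. For RFC5 the circle lies at 0 and the 3 diamonds between -1.60 and -1.44.

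The nuclease genes FEN1, which trims Okazaki fragments, and EXO1, which resects DNA ends and acts in mismatch repair, both fell. EXO1 had 9.05, 8.90 and 8.61 under PD325901, 10.85 and 10.74 under BB94 and 10.76, 10.78, 10.86 and 10.76 in control, its PD325901 arrays at least 1.69 units below the others (log2 change -1.93, SE 0.10, 3.82-fold, adjusted p = 2.8e-07). FEN1 gave 12.13, 12.19 and 11.98 under PD325901, 13.13 and 13.11 under BB94 and 13.16, 13.19, 13.28 and 13.31 in control (log2 change -1.13, SE 0.08, 2.20-fold, adjusted p = 2.1e-06). Both BB94 arrays of FEN1 lay just below the 4 control arrays, without a call (log2 change -0.12, 95% interval -0.32 to 0.09).

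All 4 genes of nucleotide supply fell, by 1.74- to 2.56-fold. RRM1 and RRM2 form ribonucleotide reductase, TYMS makes thymidylate and TK1 salvages thymidine. RRM1 stood at 9.48, 9.50 and 9.37 under PD325901, 10.68 and 10.65 under BB94 and 10.78, 10.76, 10.89 and 10.79 in control, with PD325901 clear of the other arrays (log2 change -1.35, SE 0.08, 2.56-fold, adjusted p = 3.4e-07). RRM2 and TYMS had log2 changes of -1.24 and -0.85. TK1 had 10.80, 10.87 and 10.69 under PD325901, 11.46 and 11.32 under BB94 and 11.34, 11.48, 11.71 and 11.80 in control. Its PD325901 arrays were lowest (log2 change -0.80, SE 0.12, 1.74-fold, adjusted p = 3.2e-04), while control replicates 3 and 4 lay above replicates 1 and 2.

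CLSPN and TIMELESS stand at opposite ends among the fork genes. CLSPN encodes claspin, which passes the checkpoint signal from stalled forks to CHK1, and had 7.51, 7.74 and 8.04 under PD325901, 10.08 and 9.99 under BB94 and 10.33, 10.10, 9.73 and 9.74 in control. The nearest other array lay 1.69 units above its PD325901 arrays (log2 change -2.21, SE 0.16, 4.63-fold, adjusted p = 2.6e-06). TIMELESS, which steadies the fork, had 8.22, 8.11 and 8.36 under PD325901, 8.68 and 8.50 under BB94 and 8.72, 8.76, 8.91 and 8.70 in control. Its PD325901 arrays were below all others, the nearest being a BB94 array 0.15 units above (log2 change -0.54, SE 0.09, 1.45-fold, adjusted p = 9.0e-04).

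Genes of chromatin and histone supply fell too. CHAF1A and CHAF1B encode subunits of chromatin assembly factor 1, UHRF1 recruits the maintenance DNA methyltransferase, and SLBP binds the stem-loop of histone mRNA. CHAF1A had 7.72, 7.39 and 7.27 under PD325901, 9.41 and 9.25 under BB94 and 9.36, 9.20, 9.59 and 9.62 in control, the PD325901 arrays well apart (log2 change -1.99, SE 0.13, 3.96-fold, adjusted p = 1.4e-06). CHAF1B and UHRF1 had log2 changes of -1.19 (SE 0.08) and -1.76 (SE 0.23). SLBP, at 8.34, 8.36 and 8.38 under PD325901, 9.13 and 9.11 under BB94 and 9.31, 9.27, 9.10 and 9.07 in control, fell 1.77-fold with little spread (log2 change -0.83, SE 0.08, adjusted p = 2.3e-05).

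Taken against the mean of control, the 43 genes had median deviations of -1.23 (replicate 1), -1.30 (replicate 2) and -1.35 (replicate 3), beside 0.12, 0.08 and 0.04 over all genes. Replicate 3 was the lowest of the 3 in 28 of the 43 genes and replicate 1 the highest in 29. CLSPN ran the other way, at 7.51 in replicate 1 and 8.04 in replicate 3. The median SD of the 43 genes was 0.11 under PD325901, 0.05 under BB94 and 0.13 in control, against 0.09, 0.08 and 0.16 over all genes.

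BB94 gave no call in either direction for these genes with limma, and 0 of the 43 had an unadjusted p under 0.05, beside 10.9% of all genes. The median log2 change was 0.00, with 21 genes below 0 and 22 above, and the range over the 41 genes above background on all BB94 and control arrays ran from -0.20 (TK1) to 0.37 (UHRF1). For 37 of the 43 the 95% interval lay within 0.5 log2 units of 0. The 6 with wider intervals were E2F7, E2F8, CCNE2, MCM4, MCM5 and UHRF1. UHRF1 had 8.48, 8.47 and 8.98 under PD325901, 10.72 and 10.82 under BB94 and 10.74, 10.79, 9.79 and 10.28 in control, and the BB94 arrays lay beside control replicates 1 and 2 (log2 change 0.37, 95% interval -0.21 to 0.94). With control replicates 1 and 2 left out, CCNE2 was called higher under BB94 (log2 change 0.68, adjusted p = 0.0119), where its 20 alternatives gave adjusted p-values of 0.0119 to 1.00. Of the 60 probe sets not used, 1 was called under BB94, beside 1.50% of all probe sets, so the count is near the share over all of them. This was the dimmest of 3 E2F3 probe sets, named after its value was seen, at 8.64, 9.18 and 8.95 under PD325901, 9.60 and 9.51 under BB94 and 10.40, 10.30, 10.32 and 10.92 in control. Both BB94 arrays lay below all control arrays (log2 change -0.93, SE 0.19, adjusted p = 0.0381), while the E2F3 probe set used had 0.06. Both BB94 arrays lay above all 4 control arrays in 4 genes and below them in 3, beside 6.35% and 11.0% of all genes.

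**Figure D3:**
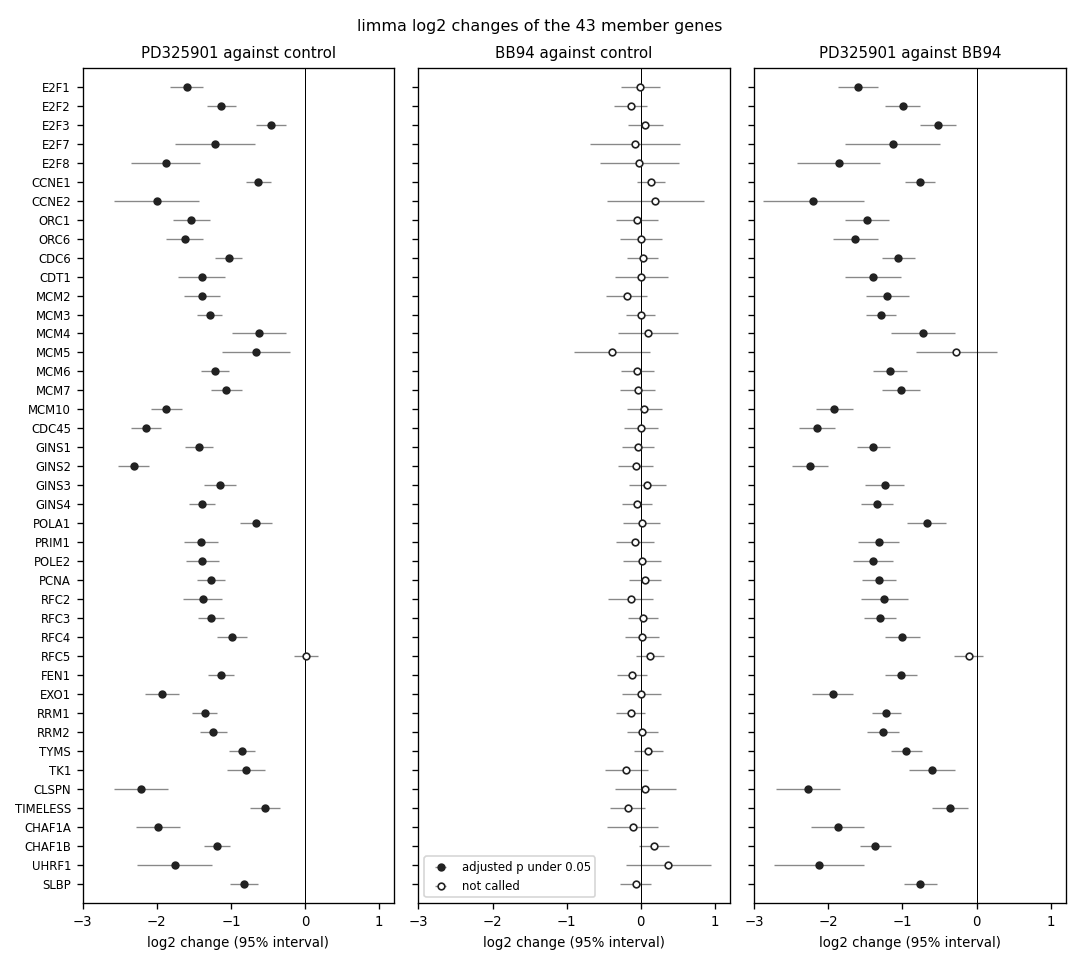
Limma log2 change of each of the 43 genes with its 95% interval, in PD325901 against control, BB94 against control and PD325901 against BB94. Filled points were called at an adjusted p under 0.05. Under BB94 all points are open and lie between -0.39 (MCM5, below background throughout) and 0.37 (UHRF1). Some of their intervals reach beyond 0.5 log2 units from 0.

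The PD325901 arrays were also set directly against the BB94 arrays, which are a second group of treated cultures. Of the 43 genes, 41 were called lower under PD325901, beside 10.2% of all genes. Falls of at least 2-fold were called in 32, beside 2.42% of all genes. The 32 include E2F8 and ORC1, whose bounds against BB94 are only 1.11- and 1.52-fold, which leaves 30 of the 40 genes measured in both groups. In addition all PD325901 arrays lay below both BB94 arrays in 42 genes, beside 20.1% of all genes. This comparison shares the PD325901 arrays with PD325901 against control, so it is not a repeat of it. The median log2 change was -1.26. CLSPN led with -2.27 (SE 0.20), followed by GINS2 at -2.24, CCNE2 at -2.20, CDC45 at -2.15 and UHRF1 at -2.13. RFC5 (log2 change -0.11, 95% interval -0.30 to 0.08) and MCM5, below background throughout, were not called. Without BB94 replicate 1 the calls of E2F7 (adjusted p = 0.0902), MCM4 (0.105), TK1 (0.0681) and TIMELESS (0.216) were lost, and without BB94 replicate 2 those of E2F7 (0.0542), MCM4 (0.0655) and TIMELESS (0.0516). TIMELESS was also lost without PD325901 replicate 1 (0.0755) or 2 (0.109), and MCM4 without PD325901 replicate 2 (0.0569).

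A longer list of replication and E2F genes outside the 43 was read beside them. Of 57 measured, 46 fell, 1 rose and 10 were not called in PD325901 against control, and the median log2 change was -0.75. Over all genes 12.3% were called lower and 22.8% higher, with a median of 0.08. The lowest were ATAD5, which unloads PCNA (-1.93), CDC25A, a phosphatase that activates CDK2 (-1.65), and DTL, part of the ligase that destroys CDT1 (-1.62). POLD4, a small subunit of polymerase delta, was the one that rose (log2 change 1.03, SE 0.11, 2.04-fold, adjusted p = 2.8e-05), with 10.81, 10.79 and 10.75 under PD325901, 9.91 and 9.68 under BB94 and 9.60, 9.61, 9.86 and 9.95 in control. Its PD325901 arrays lay above all others. Of the called genes outside the 43, ORC5 (-0.29) and MCMBP (-0.30), which binds MCM proteins, changed least. Among the other origin recognition subunits, ORC3 fell (-0.32), and ORC2 (-0.15) and ORC4 (-0.01) were not called. Among partners of E2F, RBL1, a pocket protein, was below background on all PD325901 arrays and fell at least 1.97-fold, TFDP1, a dimer partner of E2F, fell (-0.65), and E2F4 (-0.18) and E2F5 (0.28) were not called. Under BB94 0 of the 57 were called with limma, with 2 at an unadjusted p under 0.05, beside 1.58% and 10.9% of all genes. The absence of calls is thus near the share over all genes.

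**Figure D4:**
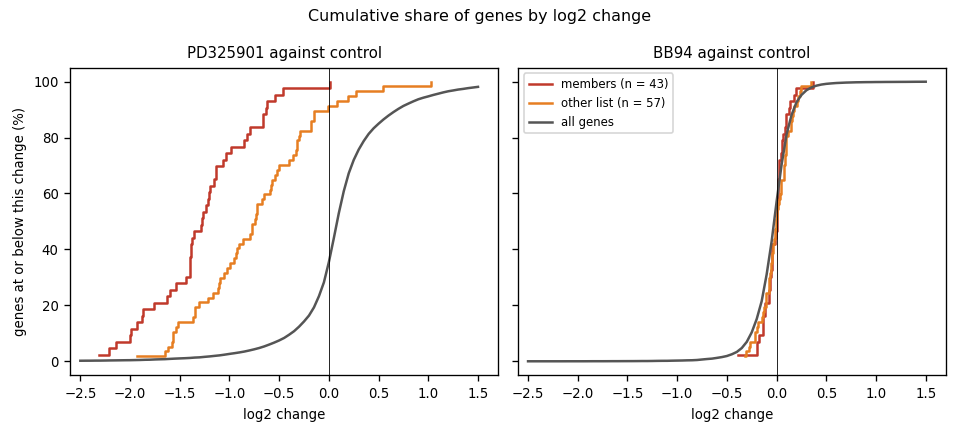
Cumulative share of genes (percent, y axis) at or below each log2 change (x axis, extremes of all genes not shown), in PD325901 against control and in BB94 against control, for the 43 genes, the other list of 57 replication and E2F genes and all 18132 genes. Under PD325901 the 43 genes lie furthest left (median -1.27), then the other list (median -0.75), then all genes (median 0.08), while the curves nearly coincide under BB94.

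Markers of the line and of ERK output were read on the same arrays. VIM, CD44, AXL, CAV1 and MSN were above background on all arrays, and ESR1, PGR and CDH1 below it on all, while FOXA1, listed with them as an absent marker, was above it on all 9. Of 10 leukocyte, fibroblast and endothelial markers measured, COL1A1 alone was above background. The ERK-responsive gene DUSP6 had 11.04, 8.99 and 8.02 under PD325901, 13.26 and 13.29 under BB94 and 13.34, 13.52, 13.36 and 13.24 in control. Its PD325901 arrays lay below the rest but far apart, and its log2 change of -4.01 moved to -4.86 without PD325901 replicate 1, an alternative chosen after seeing the data. CCND1, the gene of cyclin D1, had a log2 change of -3.29, and -3.42 without that replicate. RNA integrity was read from ACTB, whose 3′ probe set exceeded its 5′ one by 3.50 to 4.15 log2 units under PD325901, 3.91 and 4.22 under BB94 and 2.96 to 3.89 in control, and its part in the results was not tested.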

How the data were processed

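RNA from 9 cultures was measured on Affymetrix PrimeView arrays. The deposited log2 values were made by the authors with RMA (R package affy), per the series' design text. RMA equalises the distributions of the arrays, so a shift shared by most genes would be reduced. Scanner files were not used here. Of 49395 probe sets, 44988 had 1 gene symbol, 1832 several and 2473 none; the rest were controls. For each of 18132 genes the probe set with the highest mean was kept. All groups entered 1 limma fit (limma 3.58.1, R 4.3.3) with no covariate, and p-values were adjusted over all genes. The fit was tested on simulated data. The 43 genes, the other lists and the choice of alternatives were made with earlier results of these data known. Genes were named by role, with all array values for the member of each role that changed most and least in PD325901 against control and for members not called; other genes were the 3 lowest and 3 highest called. E2F1, the further ORC genes, RBL1, TFDP1, E2F4 and E2F5 were named outside this rule, after their values were seen. The 20 alternatives covered probe sets, filter, variance model, weights, normalization, samples, replicate block and replicates left out. Scan dates and slides were not given. The number of arrays limits the precision.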

Additional observations from a re-analysis of the deposited data

Results flagged for a closer look

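CDT1 in control replicate 3 had a log2 value of 9.10, while the other 3 control arrays lay between 8.79 and 8.84. Its gap to the nearest control array was 0.854 of the range of the 4. This was 1 of the 43 genes examined in the control group, and chance alone flags about 1 in 20 such groups.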

How the results depend on the processing

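With 20 alternatives, the count of the 43 genes called lower in PD325901 against control was 41 to 42 when 1 replicate was left out and 40 to 43 otherwise. In PD325901 against BB94 it was 37 to 41 and 40 to 43. With the replicate number as a block, 41 genes were lower in PD325901 against control. Deviations of same-numbered arrays from their group means had correlations of -0.19 to 0.12. The arrays are few, and the deviations of the 2 BB94 arrays mirror each other. These correlations therefore cannot show whether the numbers pair the cultures. RFC5 turned to -1.12 with the mean of its probe sets, because its other 3 probe sets fell. Without control replicates 1 and 2, 1 of the 43 was called higher under BB94. In the other list, genes higher in PD325901 against control numbered 2 with the filter, 2 with trend and robust, 5 without control replicates 1 and 2, and 1 to 3 with 1 replicate left out. Under BB94 that list had 1 lower with the mean of probe sets, and 1 lower and 5 higher without control replicates 1 and 2. In PD325901 against BB94 it had 2 higher with array weights, 3 with only the 2 groups, 3 without control replicates 3 and 4, and 4 without replicates 1 and 2. Causes were not tested unless given. Over all genes, calls ranged from 1779 to 5076 lower and 2353 to 5820 higher in PD325901 against control, from 27 to 774 and 27 to 859 under BB94, and from 1153 to 5025 and 1990 to 5010 in PD325901 against BB94. Having only 2 BB94 arrays limits the precision, and a strict background level limits which folds are given.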

Other observations

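Control replicates 1 and 2 both lay above replicates 3 and 4 in 19 of the 43 genes (44.2%) and both below in 12 (27.9%), near the 41.1% and 21.0% of all genes. The 2 pairs differed by over 0.5 log2 units in 6 of the 43 genes (14.0%), beside 6.92% of all genes. Among the genes above background on all control arrays, the mean of replicates 1 and 2 minus that of 3 and 4 was 0.97 log2 units for CCNE2, 0.89 for E2F7, 0.73 for UHRF1 and 0.57 for MCM4. The pairs were chosen after the values were seen. The ACTB excess of 3′ over 5′ was 3.89 and 3.75 log2 units in control replicates 1 and 2. In replicates 3 and 4 it was 3.46 and 2.96, and its part in the split was not tested.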
